A study of Mus musculus with 14 samples.

Results

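AGO2 is the protein that holds a microRNA (miRNA) and brings it to messenger RNA. In animals most studied miRNA sites lie in the 3′ untranslated region (3′ UTR), where pairing of the miRNA seed to the message lowers translation and shortens the life of the mRNA. Sites inside the coding sequence are also known; a translating ribosome passes over them, and they are generally described as weaker regulators of mRNA level than 3′ UTR sites. The binding groups described here are those that AGO2 PAR-CLIP placed in coding sequence in mouse bone marrow derived macrophages. In PAR-CLIP, cells take up 4-thiouridine, protein is crosslinked to RNA and precipitated, and crosslinked uridines are read as C. A group is a cluster of overlapping reads, and a T-to-C conversion event is such a change counted in its reads.

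Members were all groups that the authors' tables class as coding and that hold at least 1 conversion event. There were 8342 of 66451 listed groups in the wild type library (WT) and 6649 of 85458 in the knockout library (KO). WT cells were C57BL/6 macrophages of genotype ELAVL1f/f, with the floxed Elavl1 allele and no Cre. KO cells were C57BL/6 macrophages of genotype ELAVL1f/f, LysM-Cre, so both genotypes carry the floxed allele, and Cre is driven from the Lyz2 gene, which is active in myeloid cells. Elavl1 encodes ELAVL1 (HuR), which binds U-rich and AU-rich elements, mostly in 3′ UTRs and introns. Marrow was grown with 20% L929 cell medium for 6 days per the sample labels (the series text gives 7 days), and AGO2 was precipitated with the WAKO 2D4 antibody. There was 1 PAR-CLIP library for each genotype, so no PAR-CLIP value has a replicate check, and intervals are exact Clopper-Pearson intervals at 95% that cover counting error only. Total RNA gave 4 mRNA libraries per genotype, numbered 1 to 4. Whether these are separate animals is not stated in the labels; the p-values reflect only how much the samples vary, which may be technical.

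The mRNA libraries held 8160789 to 25030262 counts, and the listed PAR-CLIP groups held 6287870 reads in WT and 6445262 in KO, which is not the full library depth. Elavl1 mRNA, in deposited RPKM (reads scaled to gene length and library depth), was 12, 10.9, 11.5 and 11.9 in WT 1 to 4 and 13.6, 11.5, 11.9 and 13.5 in KO 1 to 4, so it was not lower in KO. Since these counts are summed over the whole gene, loss of the floxed part cannot be judged from them; WT and KO below mean the libraries so labelled. Summed CPM (counts scaled to library size) of the macrophage identity genes ran from 35339 to 47855 in WT and from 28817 to 37487 in KO; without Lyz2, described below, they ran from 25462 to 32014 and from 25169 to 32113. Those of 11 neutrophil genes ran from 10.8 to 35.0 and from 23.4 to 64.5 CPM, and those of 11 fibroblast or stromal genes from 197 to 323 and from 226 to 404 CPM.

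The sequences that carry the clearest pattern are the seeds of the miRNAs and the coding groups that hold a match to them. Mature sequences are from RefSeq (GRCm38.p6), 5′ to 3′, with the seed (bases 2 to 8) in capitals. These 8 families are among those that match the coding groups of most reads:
let-7a-5p: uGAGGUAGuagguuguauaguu
miR-16-5p: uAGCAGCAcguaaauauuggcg
miR-27a-3p: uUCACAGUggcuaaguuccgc
miR-221-3p: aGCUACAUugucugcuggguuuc
miR-24-3p: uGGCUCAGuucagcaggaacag
miR-223-3p: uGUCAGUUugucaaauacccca
miR-23a-3p: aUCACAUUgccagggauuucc
miR-26a-5p: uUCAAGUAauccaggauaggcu

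The next sequences are coding groups of the WT library, or of the KO library where so named, as the authors' tables give them, with the letters that match a seed in capitals. They were picked from the groups of most reads, and from genes with no 3′ UTR group, to show each of these families at least once. A match is a description of letters and does not show which miRNA was bound. At most 30 bases of a group are shown:
Tor1aip1, miR-27 match: gatcttctataaatACTGTGAccatgaaaa
Acsl4, miR-27 match: ctcctcttatttgCTGTGAAattaaactg
Orc5, miR-27 match: cttaatttccccaaatACTGTGAAcctg
Coro1a, let-7 match: tgatcctgataccaacattgtCTACCTCtg
Lgals3bp, let-7 match: atacgccccttCTACCTCActaactccact
Fam120a, miR-15/16 match: ttttcctattttTGCTGCTctgttag
Lamp2, miR-23 match: taaaggtgcaaccttttAATGTGAcaaaag
Hist1h2bk, miR-24 match: ctattcatttctacgccatgcCTGAGCCtg
Mapkapk5, miR-221 match: cagtttaccccttactATGTAGCAcctcag
Tuba4a, miR-27 match: actccttcaccaccttcttCTGTGAAactg
Acadl, miR-223 match: ctccttctgctaaaaaattAACTGACAttg
B4galt5 of KO, miR-26 match: attatcctctggACTTGAAccacag

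On mm9 these groups stand in full at chr1:157854308-157854346 on the minus strand (Tor1aip1), chrX:138768229-138768257 minus (Acsl4), chr5:22032368-22032395 minus (Orc5) and chr7:133844513-133844553 minus (Coro1a). The Lgals3bp group stands at chr11:118254341-118254396 minus, Fam120a at chr13:49044426-49044451 minus and Lamp2 at chrX:35777459-35777489 minus. Among genes with no 3′ UTR group, the Hist1h2bk group stands at chr13:22127738-22127768 plus, Mapkapk5 at chr5:121984344-121984379 minus, Tuba4a at chr1:75213844-75213873 minus and Acadl at chr1:66904064-66904094 minus. The B4galt5 group stands at chr2:167134812-167134836 minus. The authors' tables place all of these in coding sequence; no exon number is given there.

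Coding groups were the second largest class of converted groups in WT after the 3′ UTR. They made up 21.3% (20.9 to 21.7) of the 39148 converted groups of WT and 19.5% (19 to 19.9) of the 34156 of KO, against 49% and 41.6% for the 3′ UTR. In KO, intergenic groups, at 26.2%, outnumbered them. Of all listed coding groups, 77.6% (76.8 to 78.4) had a conversion in WT and 68.8% (67.8 to 69.7) in KO. The same shares were 86.9% and 81.6% for the 3′ UTR, 39.7% and 26.5% for introns, and 31.6% and 20.9% for intergenic groups. Each class had a lower converted share in KO, and in both libraries coding stood just below the 3′ UTR and well above introns.

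Reads per group were few. The median converted coding group held 16 reads in WT (quartiles 11 and 27) and 19 in KO (quartiles 14 and 31), beside 19 and 21 for converted 3′ UTR groups. The 109 WT groups with at least 300 reads were 1.31% of the members and held 32.4% of their 325000 reads. In KO the 86 such groups were 1.29% of the members and held 23.0% of their 253158 reads. KO had 79.7% (77.2 to 82.3) as many members as WT, 89.9% with at least 10 reads required per group, and 64.5% with at least 2 conversion locations required. The 3′ UTR number in KO was 74.0% of that in WT.

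Coding reads were 15.9% of all reads in converted coding and 3′ UTR groups in WT and 14.9% in KO. That order rested on few groups. Without the Ank1 group described below it was 15.1% in WT and 14.9% in KO, and among groups with at least 0.2 conversion events per read it turned, to 16.7% in WT and 19% in KO. The requirement removed 208968 reads of 3′ UTR groups in WT and 384637 in KO, but 23065 and 3720 reads of coding groups. The largest converted 3′ UTR group alone held 193858 reads in WT and 365850 in KO. A single group per library could therefore make up most of the 3′ UTR reads removed, which was not tested.

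The class label could be checked against the letters only in part. A coding stretch must leave at least 1 of its 3 reading frames free of stop codons. Among groups of at least 30 bases, 8 of 1134 coding groups in WT (0.705%) and 4 of 633 in KO (0.632%) had a stop in every frame, against 9.99% and 9.48% of 3′ UTR groups. Most 3′ UTR groups thus also kept an open frame, so an open frame does not show that a group is coding. Most coding groups were shorter than 30 bases and are not covered by these shares. The exceptions included leading WT groups in Psap (11233 reads) and Fth1 (5164 reads); the shorter Fth1 group of KO, 29 bases with 3510 reads, had 2 open frames.

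Coding groups differed from 3′ UTR groups in their letters and, less, in their length. Their median length was 24 bases in WT and 23 in KO, against 25 in both for the 3′ UTR. They held 28.7% C in WT and 28.6% in KO, against 22.6% in 3′ UTR groups of either library, and 30.2% and 30.1% T against 35.8%. G was scarce within both classes but closed most groups: 80.7% (79.8 to 81.5) of WT coding groups and 79.7% (78.8 to 80.7) of KO coding groups ended in G, while 1.44% and 1.53% began with it. In 3′ UTR groups 79.9% and 78.1% ended in G. RNase T1, which cuts RNA after G, is commonly used in PAR-CLIP; the labels do not name the enzyme. A single conversion location was present in 86.2% (85.4 to 86.9) of coding groups in WT and 88.8% (88.0 to 89.6) in KO, against 77.3% and 81.4% of 3′ UTR groups.

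Coding reads were spread over many genes, with a few leading. In WT the 10 leading genes were Ank1, Psap, Tor1aip1, Fth1, Ctsd, Acsl4, Orc5, Fam120a, Mpeg1 and Coro1a, which together held 17.8% of the coding reads. In KO they were Tor1aip1, Ctsd, Fth1, Acsl4, Mpeg1, Coro1a, Cybb, Psap, Orc5 and Lgals3bp, with 10.1%. The first 100 genes held 37.7% and 31.4%. Without the largest Ank1 and Psap groups, described below, the first 10 genes of WT held 9.75% and the first 100 held 31.4%. Values that follow are raw reads in converted coding groups.

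Tor1aip1, which encodes an inner nuclear membrane protein, had 7078 coding reads in WT and 7196 in KO. A single group with the miR-27 match shown above held 7021 of them in WT and 7010 in KO, with 0.952 and 0.976 conversion events per read. Its converted 3′ UTR groups held 108 and 73 reads. Fth1, the heavy chain of the iron store ferritin, had 5356 coding reads in WT and 3726 in KO, against 58 and 73 in the 3′ UTR. Acsl4, an enzyme that activates long fatty acids, had 2900 and 2373 coding reads against 445 and 120. Orc5, a subunit of the origin recognition complex of DNA replication, had 1811 and 1335 coding reads against 26 and 29. In these 4 genes coding reads exceeded 3′ UTR reads in both libraries, and in Tor1aip1, Acsl4 and Orc5 the leading group held a miR-27 match.

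Ctsd, the lysosomal protease cathepsin D, differed in shape. Its 3650 reads in WT and 3779 in KO were spread over 19 and 15 coding groups, and its 3′ UTR held 1688 and 1163 reads. Mpeg1, a pore-forming protein of macrophages, had 1579 coding reads in 10 groups in WT and 1531 in 11 groups in KO, against 1274 and 1081 in the 3′ UTR. Coro1a, an actin-binding protein of leukocytes, had 1576 and 1525 coding reads, nearly all in the group with the let-7 match, and 0 and 17 reads in converted 3′ UTR groups. Cybb, the catalytic subunit of the phagocyte NADPH oxidase, had 1356 and 1395 coding reads against 219 and 131. Lgals3bp, a secreted galectin-binding glycoprotein, had 966 and 1278 coding reads. Fam120a had 1709 and 1245, and 0 and 23 reads in converted 3′ UTR groups.

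Both leading entries of WT need care. Ank1, the ankyrin of the red cell membrane skeleton, had 19276 reads in 1 group of 19 bases with 4 conversion events. The same position in KO held 825 reads with 0 conversion events, so it is no member there. Ank1 mRNA stood between 0.0303 and 0.0569 RPKM in the 8 mRNA libraries, far under every other leading gene of either library. Psap, the precursor of the lysosomal saposins, had 12942 coding reads in WT and 1353 in KO. Of the WT reads, 11233 lay in 1 group of 215 bases with a stop codon in every frame, and at that position the KO table lists 4 groups with 6521 reads, all classed 3′ UTR. Without that group Psap had 1709 coding reads in WT, and WT over KO fell from 9.80 to 1.29, both scaled to all group reads. In KO, a Pcnx group of 1206 reads had 47 conversion events.

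**Figure D1:**
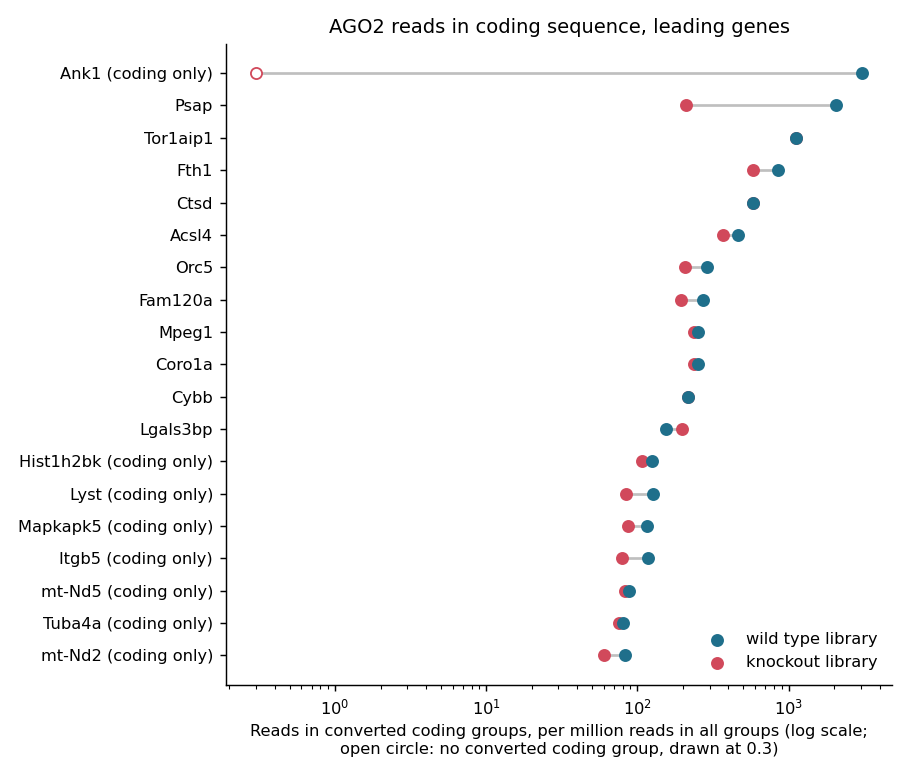
Reads in converted coding groups scaled to the reads in all listed groups (log scale), for the 10 leading genes of each library and the 8 leading genes bound in coding sequence alone, in WT (blue) and KO (red; hidden behind blue where equal). Apart from Ank1 (no converted group in KO, open circle at 0.3) and Psap, the points of the 2 libraries lie close together; Tor1aip1 held 7078 and 7196 reads.

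Among the gene groups listed for macrophages, lysosomal genes held the largest share of coding reads. The counts of this and the next lists are to be read beside those of all genes. Of the 14019 genes tested for mRNA change, 5048 had converted coding groups. The share was 44.0% of all genes with 5 to 20 RPKM in WT and 51.6% of those at 100 RPKM or more. The lists were not compared with other genes of equal mRNA level. Of 30 lysosome and cathepsin genes 27 had converted coding groups, led by Psap, Ctsd and Ctsb, with 7.00% of coding reads in WT and 4.16% in KO. Without the Psap group of 11233 reads the WT share was 3.67%, below that of KO. Of 25 cytoskeleton genes 20 had coding groups, led by Coro1a, Tln1 and Vim, with 1.61% and 1.97%. Of 25 macrophage identity symbols 20 had coding groups, led by Ctsb, Cd36 and Csf1r, with 1.40% and 1.44%, and Cd14 was the 1 among them with no 3′ UTR group. Matched to the mRNA data, these symbols stood for 24 genes, of which 21 had coding groups.

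The other lists held smaller shares. Of 21 translation factors 13 had coding groups, led by Eef2, Eif3c and Eif4g2, with 0.217% of coding reads in WT and 0.327% in KO. Of these 13, 5 had no 3′ UTR group (Eef1a1, Eef2, Eif3b, Eif3c and Pabpc1). Of 21 chaperones 16 had coding groups, led by Hsp90ab1, Canx and Tcp1, with 0.213% and 0.284%. Of 16 glycolysis symbols 9 had coding groups, led by Hk3, Slc2a1 and Gpi1, with 0.0637% and 0.112%. Of 12 antigen presentation symbols (11 genes in the mRNA data) 7 had them, led by B2m, Cd74 and H2-D1, with 0.303% and 0.307%.

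Some of the miRNA pathway's own genes had coding groups, a count to be read beside the shares of all genes given above. Of 22 symbols of the silencing machinery 14 had coding groups, with 0.865% of coding reads in WT and 0.938% in KO. They were led by Tnrc6a and Tnrc6c, the GW182 proteins that AGO2 recruits, and by Zfp36l2, a decay factor for AU-rich mRNA. The leading Zfp36l2 group had few conversions, with 55 events in 368 reads in WT and 12 in 323 reads in KO. Eif2c2, the older symbol of Ago2, had no converted coding group in either library, while its 3′ UTR held 16 groups with 481 reads in WT and 11 with 343 in KO. Elavl1 had 1 coding group in each library, with 16 reads in WT and 26 in KO, and 75 and 112 reads in the 3′ UTR. Of the markers of other cell types, Ltf of 11 neutrophil genes and Col1a2 and Fn1 of 11 stromal genes had coding groups, all in KO, with 11 and 33 reads. None of the lymphocyte, erythroid or mast cell markers had one.

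The libraries shared most of their strong coding groups and few of their weak ones. A converted coding group of the other library overlapped, by at least 1 base on the same strand, 2659 of the 8342 WT groups, or 31.9% (30.9 to 32.9). The share of KO groups was 40.0% (38.8 to 41.2). With any listed coding group of the other library allowed, converted or not, the shares were 35.3% and 42.8%. The shared groups held 60.9% of coding reads in WT and 70.3% in KO; their median was 31 reads in both, against 14 and 17 for the others.

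The share rose with the reads of the group. Of WT groups with 5 to 9 reads 17.0% (15.1 to 19) overlapped, of those with 20 to 49 reads 37.6%, of those with 50 to 99 reads 81.9% (78.6 to 84.9), and of those with at least 300 reads 98.2% (93.5 to 99.8). For KO the corresponding shares were 20.6%, 44.1%, 86.5% and 100% (86 of 86). The 2 WT groups of at least 300 reads without a partner were those of Ank1 and Psap. In 3′ UTR groups the share also rose, from 20.9% to 99.8% in WT and from 34.3% to 99.6% in KO. KO coding groups of 10 to 19 reads overlapped in 24.2% (22.6 to 25.7) of cases, fewer than the 35.2% (34 to 36.5) of 3′ UTR groups with equal reads. In WT groups of that size the values were 18.6% and 20.4%, with intervals that met. In WT groups of 50 to 99 reads the order was the other way, with 81.9% (78.6 to 84.9) of coding and 75.7% (73.7 to 77.7) of 3′ UTR groups.

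**Figure D2:**
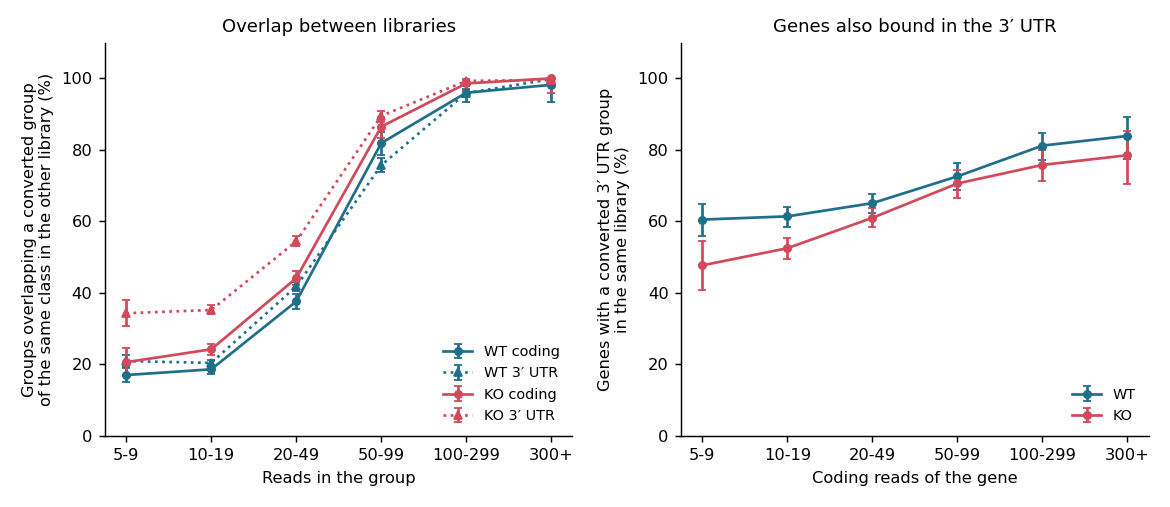
Left, share of converted groups that overlap a converted group of the same class in the other library, by reads in the group; right, share of genes with converted coding groups that also hold a converted 3′ UTR group in the same library, by coding reads of the gene. Bars are exact 95% binomial intervals; overlap of coding groups rises from 17.0% to 98.2% in WT and from 20.6% to 100% in KO, and the right-hand share from 60.5% to 83.9% in WT and from 47.7% to 78.5% in KO.

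At the level of genes, 4183 had a converted coding group in WT and 3699 in KO, 2610 in both and 5272 in either. The shared genes were 62.4% (60.9 to 63.9) of the WT genes and 70.6% (69.1 to 72.0) of the KO genes. A single coding group was all that 56.0% of the WT genes and 63.1% of the KO genes had. Ahnak, a very long protein, had the most, with 39 groups in WT and 24 in KO. Symbols were as deposited, and 10 of them had been turned into dates in the tables (such as 2-Mar) and were not matched to mRNA.

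Most genes bound in coding sequence were also bound in the 3′ UTR. In WT 2807 of the 4183 genes, or 67.1% (65.7 to 68.5), held a converted 3′ UTR group in the same library, and in KO 61.3% (59.7 to 62.9). Of the 14019 genes tested for mRNA change, 2763 had both classes in WT and 1294 had coding groups alone. A further 2709 had 3′ UTR groups alone and 7253 had neither. In KO these numbers were 2234, 1317, 2597 and 7871. The share among genes of equal mRNA level was not tested. Of genes with 3′ UTR groups, 49.6% in WT and 45.4% in KO also had coding groups. Among genes with both, coding reads exceeded 3′ UTR reads in 27.8% in WT and 31.1% in KO. As with the overlap, the share moved with reads, from 60.5% of WT genes with 5 to 9 coding reads to 83.9% of those with at least 300, and in KO from 47.7% to 78.5%. In genes with both, Spearman's rho of coding with 3′ UTR reads, across genes, was 0.22 in either library (2765 genes in WT, 2237 in KO); genes within a library share its depth and are not independent replicates.

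Counting both libraries, 1552 of the 5272 genes (29.4%) had converted coding groups and no converted 3′ UTR group in either. Of these, 590 were in both libraries, 546 in WT alone and 416 in KO alone. Their median was 24 coding reads summed over the libraries, against 38 for genes with both classes, and 53.9% of them had 1 group in all, against 35.2%. If unconverted 3′ UTR groups also counted, 1389 genes remained.

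The 8 leading genes bound in coding sequence alone were Ank1 (above), Hist1h2bk, Lyst, Mapkapk5, Itgb5, mt-Nd5, Tuba4a and mt-Nd2. Hist1h2bk, an H2B histone gene, had 785 coding reads in WT and 696 in KO, each in 1 group with the miR-24 match. Lyst, a regulator of lysosome traffic, had 790 reads over 11 groups in WT and 546 over 9 in KO. Mapkapk5, a kinase acting after MAP kinases, had 724 and 560 reads, of which 715 and 548 lay in the group with the miR-221 match. Itgb5, the integrin beta 5 chain, had 735 and 507 reads, and its leading group held no 7-base match to the 20 families. Tuba4a, an alpha tubulin, had 506 and 484 reads, nearly all in the miR-27 match. The mitochondrial genes mt-Nd5 and mt-Nd2, subunits of respiratory complex I, had 556 and 530 and 519 and 389 reads. Each of these but Ank1 had converted coding groups in both libraries. Histone and tubulin genes have near-identical copies, so which copy gave the reads is uncertain.

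Seed matches rose with the reads of a coding group, and at 300 reads or more their share lay within the counting interval of 3′ UTR groups. A match was a 7-base stretch pairing with bases 2 to 8 of the miRNA, or with bases 2 to 7 followed by an A, for 20 families listed for macrophages. It was present in 1822 of 8342 WT groups, 21.8% (21.0 to 22.7), and in 22.6% (21.6 to 23.6) of KO groups. In 3′ UTR groups the shares were 25.2% (24.6 to 25.8) and 26.2% (25.5 to 26.9). Coding groups without conversions had 17.1% (15.6 to 18.7) in WT and 13.3% (12.2 to 14.6) in KO, but they held fewer reads. At 10 to 19 reads in WT the shares were 15.9% (14.7 to 17.1) with and 17.9% (15.7 to 20.3) without conversions, and at 20 to 49 reads 25% (23.2 to 26.9) and 22.6% (18.4 to 27.4), with intervals that met. In KO they were 16.5% (15.2 to 17.9) and 13.0% (11.3 to 14.8) at 10 to 19 reads, with intervals apart, and 23.0% (21.2 to 24.7) and 20.3% (16.9 to 24.0) at 20 to 49. Per family the mean was 1.13% in WT and 1.18% in KO, against 0.156% and 0.135% for 3 control families of other tissues (miR-208, miR-216a and miR-217). The ranges overlapped. The 20 families ran from 0.156% (miR-155) to 3.28% (miR-15/16) in WT and from 0.135% to 3.43% in KO. The 3 controls ran from 0.0480% to 0.348% (miR-217) and from 0.0451% to 0.316%. Controls were not matched in base composition, and only 4 of the 9 listed had a sequence in the reference. The other matched control, miR-202, was left out because its seed shares 6 of 7 bases with that of let-7; its match was in 1.77% (1.5 to 2.08) of WT and 2.17% (1.83 to 2.54) of KO coding groups.

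By reads, the share went from 15.7% (13.9 to 17.6) of WT groups with 5 to 9 reads through 38.3% at 50 to 99 reads to 61.5% (51.7 to 70.6) at 300 or more, and in KO from 14.3% (11.3 to 17.8) through 40.6% to 59.3% (48.2 to 69.8). 3′ UTR groups of at least 300 reads had 61.5% (57.6 to 65.2) in WT and 60.8% (56.3 to 65.1) in KO. Groups of more reads were also longer, with a median of 21 bases at 5 to 9 reads and 31 at 300 or more in WT, and a longer group can hold more 7-base words. Within groups of 22 to 26 bases the share still rose, from 17.0% (13.6 to 20.8) to 73.7% (48.8 to 90.9) in WT, the last from 19 groups, and from 16.1% to 75% in KO, the last from 20. At 100 to under 300 reads it was 52.0% of 100 WT groups and 57.4% of 94 KO groups of that length. These 3 control families stayed between 0 and 1.22% of coding groups in every class of reads in both libraries.

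**Figure D3:**
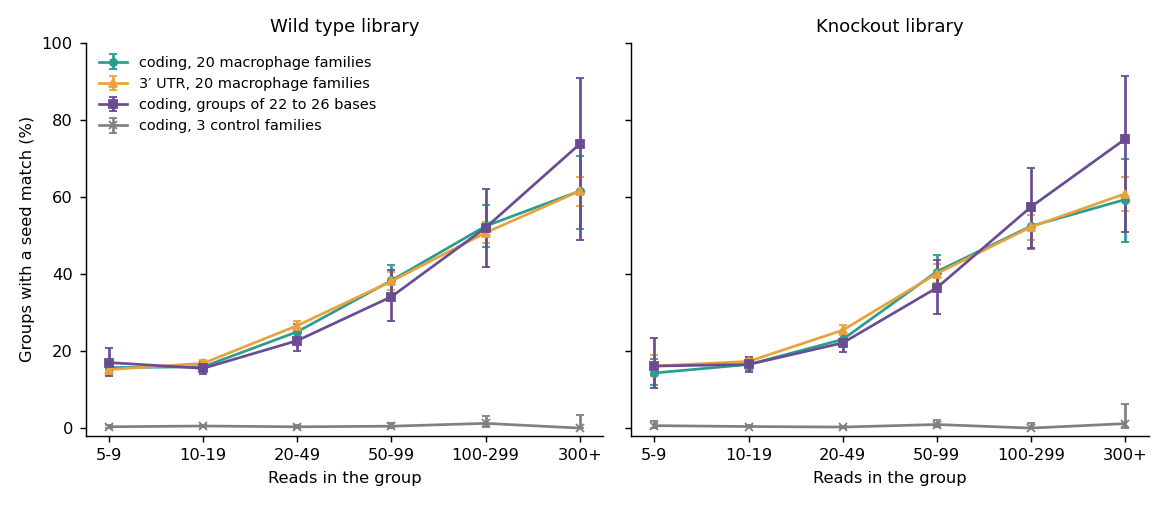
Share of converted groups with a 7-base seed match, by reads in the group, in WT (left) and KO (right), for coding groups, 3′ UTR groups, coding groups of 22 to 26 bases alone and the 3 control families in coding groups. Bars are exact 95% binomial intervals; coding and 3′ UTR curves run close together, coding from 15.7% to 61.5% in WT, and the control families stay at or under 1.22%.

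The kind and place of the match were counted next. Among matches in WT coding groups of at least 50 reads, 31.0% (27 to 35.3) paired with bases 2 to 8 and also had the A, 41.3% paired with bases 2 to 8 without it and 27.6% with bases 2 to 7 and the A. The shares in 3′ UTR groups were 31.0%, 41.0% and 28.0%. In KO coding groups they were 30.9%, 43.0% and 26.1%. In groups of 22 to 30 bases the match to bases 2 to 8 began at a median of base 14 from the group's 5′ end in WT coding groups and 13 in KO, against 14 in 3′ UTR groups.

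Families did differ. let-7, an abundant family that restrains growth genes, had a match in 2.82% (2.47 to 3.20) of WT coding groups against 1.40% (1.24 to 1.58) of 3′ UTR groups, and in 3.14% (2.74 to 3.59) against 1.43% (1.24 to 1.64) in KO. Among groups of at least 50 reads the shares were 6.98% (5.51 to 8.70) against 2.82% (2.31 to 3.40) in WT and 6.58% against 2.82% in KO. miR-30 went the other way: 1.05% (0.526 to 1.87) against 2.39% (1.93 to 2.93) in WT groups of at least 50 reads, and 0.768% against 2.17% in KO. Over all groups, intervals of coding and 3′ UTR shares stood apart in both libraries for 10 of the 20 families, with coding higher for let-7 and miR-22 and lower for miR-17, miR-19, miR-23, miR-25/92, miR-26, miR-30, miR-181 and miR-221. At 50 reads or more only let-7 and miR-30 remained apart in both. The match of let-7 (CTACCTC) is richer in C and that of miR-30 (TGTTTAC) richer in T; the base composition of the classes moves the same way, and its part in the result was not tested.

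miR-27 matches were frequent among the coding groups of most reads. The match was in 3.16% (2.80 to 3.56) of WT coding groups, against 3.27% in the 3′ UTR, and those groups held 10.3% of the coding reads and 17.5% of the 3′ UTR reads. Of the 25 coding groups of most reads 18 had a match to any of the 20 families in WT and 18 in KO, and 8 and 7 of the 25 had that of miR-27. In the small RNA libraries miR-27 made up 1.75% and 1.78% of miRNA counts in WT 1 and 2 and 1.69% and 1.74% in KO 3 and 4. miR-21, the most abundant at 45.6% to 50.5%, had a match in 0.408% (0.282 to 0.569) of WT coding groups, and let-7 made up 20.5% to 22.8% of counts. The order of families by coding matches was therefore not that of their counts.

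Genes bound in coding sequence alone and genes also bound in the 3′ UTR had shares of matched groups whose intervals met. In WT 22.3% (20.4 to 24.3) of groups of the former and 21.7% (20.7 to 22.7) of the latter had one, and in KO 22.5% (20.4 to 24.8) and 22.6% (21.5 to 23.8). At 50 reads or more the shares were 45.6% and 45.0% in WT and 39.3% (31.3 to 47.8) and 47.3% (43.7 to 50.9) in KO, with intervals that met.

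Coding reads per gene were compared between the libraries as reads scaled to the reads in all listed groups, for the 1958 genes with at least 50 coding reads over both. KO was past 2-fold above WT in 309 genes (15.8%) and past 2-fold below it in 506 (25.8%). For 3′ UTR reads of 3763 genes the shares were 8.37% and 31.3%, so the lean towards lower values in KO was smaller in coding sequence. The median log2 of KO over WT was -0.220 for coding and -0.513 for 3′ UTR reads. Scaled instead to the reads of the same class, the coding lean turned: 22.8% of genes were past 2-fold higher and 17.9% lower, with a median of 0.176, while the 3′ UTR kept 11.5% higher and 22.8% lower. Single groups weigh on these class totals. The largest Ank1 and Psap groups held 30509 of the 325000 WT coding reads. The largest 3′ UTR group held 193858 of 1719975 reads in WT and 365850 of 1449651 in KO. Scaling without these groups was not tested, so neither lean is settled. With at least 200 reads required, 4.78% of 565 genes were higher and 14.7% lower. Single groups that overlapped 1 to 1 are an unlike set, all present in both libraries and without the minimum of 50 reads. Of 2643 such pairs 62.9% were within 2-fold, with 18.9% higher and 18.2% lower in KO. Their median log2 of KO over WT was -0.04.

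The extremes were genes of few reads. Lowest in KO among genes with reads in both libraries were Patl1 (123 reads in WT, 5 in KO), a factor of mRNA decapping, Plek (106 and 5), the platelet and leukocyte protein pleckstrin, Cd151 (104 and 5), a tetraspanin, Mapre2 (167 and 9), a microtubule end-binding protein, and Anapc2 (88 and 5), a subunit of the anaphase promoting complex. Patl1 was 25.2-fold lower in KO, with an interval for KO over WT of 0.0127 to 0.0951 from counting error. Highest were Znfx1 (6 reads in WT, 86 in KO), Spag9 (5 and 67), a JNK scaffold, Lrp5 (9 and 120), a Wnt co-receptor, Adam9 (8 and 103), a membrane protease, and Wbp7 (7 and 89). Znfx1 was 14.0-fold higher in KO, with an interval of 6.17 to 39.2. A group needs 5 reads to be listed, so a gene near that limit in 1 library can lose further groups unseen. A further 83 genes of the 1958 had coding reads in WT alone and 34 in KO alone.

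**Figure D4:**
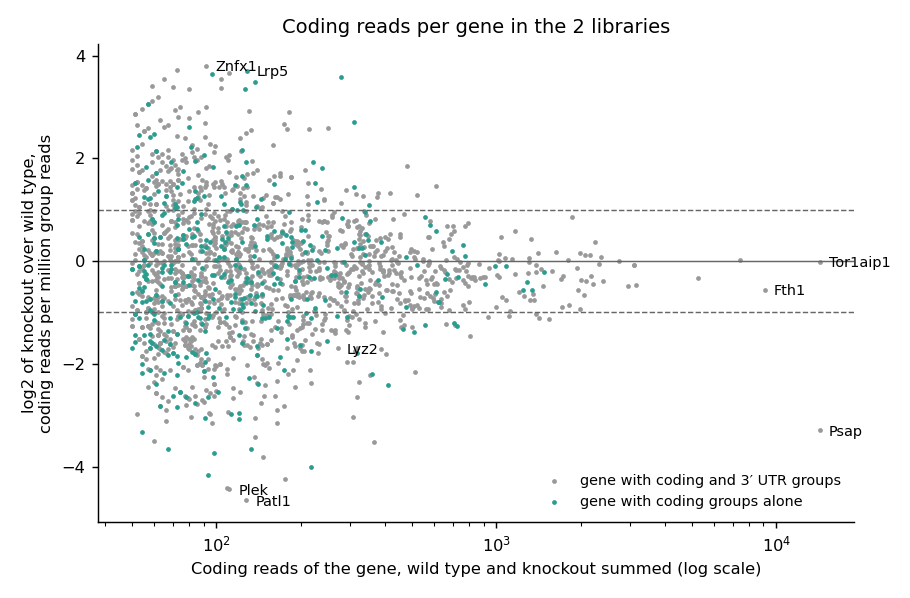
log2 of KO over WT in coding reads, scaled to all group reads, against summed coding reads (log scale), 1 point per gene with at least 50 reads and reads in both libraries; dashed lines mark 2-fold and green points are genes bound in coding sequence alone. The spread narrows as reads rise, with Tor1aip1 near 0 and Psap far below it, the latter from 1 WT group of 11233 reads that the KO table classes as 3′ UTR.

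Genes bound in coding sequence alone were expressed at a level between the other bound classes. Of the 1552 symbols 1474 were matched to a gene with mRNA counts. The median RPKM over these genes was 6.60, 6.32, 6.83 and 6.89 in WT 1 to 4 and 6.48, 6.48, 6.82 and 7.00 in KO 1 to 4. Genes with coding and 3′ UTR groups stood at 9.68 ± 0.767 RPKM (SD, n = 4) in WT and 9.69 ± 0.770 in KO, genes with 3′ UTR groups alone at 4.63 ± 0.0918 and 4.62 ± 0.0971, and genes with neither at 0.223 ± 0.0249 and 0.222 ± 0.0401. The order was the same in each of the 8 libraries, and WT and KO overlapped within each class. Gene length, from the ratio of deposited counts to RPKM and relative to the median gene, was 1.16 for coding-only genes, 1.65 for genes with both and 1.23 for 3′ UTR alone.

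Being bound in coding sequence rose with mRNA level and then levelled off. Of genes with 0.1 to 1 RPKM in WT 8.36% had converted coding groups, of those with 1 to 5 RPKM 29.2%, of those with 5 to 20 RPKM 44.0%, and of those at 100 RPKM or more 51.6%. Under 0.1 RPKM 1.84% of 5603 genes did, and 89.3% of those had coding groups alone; Ank1 and Hist1h2bk were among them. Histone mRNAs of the replication clusters mostly lack a poly(A) tail, and the labels do not give the mRNA selection. Across genes, Spearman's rho of coding reads with mean RPKM was 0.20 in WT (4097 genes) and 0.21 in KO (3613 genes).

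Levels of the leading genes spanned a wide range. Fth1 stood at 13155, 23842, 18948 and 20027 RPKM in WT 1 to 4 and 15326, 22187, 22258 and 18766 in KO 1 to 4. Tor1aip1, with more coding reads, stood at 24.4, 14.8, 23.3 and 26.2 RPKM in WT and 20.6, 14.7, 28.0 and 28.9 in KO. The genotypes overlapped in both genes. Fam120a stood at 69.0, 66.8, 68.2 and 66.5 RPKM in WT and 80.1, 76.7, 76.9 and 73.3 in KO, with every KO library above every WT library (log2 0.19, SE 0.13, edgeR adjusted p = 0.9999). Acsl4 stood at 4.57, 2.61, 8.07 and 6.20 RPKM in WT and 3.47, 2.40, 5.17 and 6.33 in KO. Orc5 stood at 2.94, 2.79, 8.55 and 5.92 in WT and 1.98, 3.05, 5.19 and 6.27 in KO. In both genes libraries 3 and 4 lay above 1 and 2, whatever the genotype, and none of the 8 libraries reached 10 RPKM.

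Levels of the coding-only leaders also spanned a wide range. mt-Nd5 stood at 422, 163, 861 and 663 RPKM in WT and 358, 203, 626 and 735 in KO. Lyst stood at 1.64, 1.34, 6.42 and 5.14 RPKM in WT and 1.61, 1.30, 5.60 and 5.80 in KO. Mapkapk5 stood at 2.97, 2.67, 3.18 and 4.05 in WT and 2.35, 3.12, 3.63 and 3.96 in KO. Tuba4a stood at 45.2, 41.4, 52.2 and 61.4 in WT and 41.0, 38.4, 43.0 and 49 in KO. Lyst differed more between library numbers than between genotypes, and all 4 genes overlapped between genotypes. Hist1h2bk had 0 RPKM in 7 libraries and 0.0273 in WT 3.

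Few genes bound in coding sequence were called as changed in mRNA, and the number depended on the fit. By edgeR's quasi-likelihood test with Benjamini-Hochberg adjustment at 0.05, 0 of 5048 tested member genes were called, with 21 at an unadjusted p under 0.05; over all 14019 genes tested the called share was 0%, with 81 at an unadjusted p under 0.05, and DESeq2 called 2 genes in all, of which 1, Lyz2, was a member. With the replicate number as a block edgeR called 2 of the 5048, Lyz2 and Abcb4, both lower in KO, against 0.0357% of all genes. That fit had 499 of the 5048 (9.89%) at an unadjusted p under 0.05, against 1321 of the 14019 genes (9.42%). Without the block these shares were 0.416% and 0.578%, so the absence of calls there does not show that mRNA was unchanged. Of all tested genes, 1390 were bound in coding sequence alone and 1 of them was called with the block, Abcb4; with the block and without the libraries numbered 1, 0 of 1398 were called. DESeq2 with the block, added after the data were seen, called 45 of 4972 members (0.905%) and 14 of 1338 coding-only genes (1.05%), against 0.659% of all genes. In these bulk samples fewer cells of a type and less RNA per cell cannot be told apart.

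Lyz2, lysozyme of macrophages, stood at 6773, 7098, 10666 and 9414 RPKM in WT 1 to 4 and 2463, 3412, 3656 and 4299 in KO 1 to 4. Every KO library lay below every WT library. By edgeR, KO against WT was -1.29 on the log2 scale with and without the block (SE 0.10 and adjusted p = 4.7e-04 with it, SE 0.23 and adjusted p = 0.9999 without it). LysM-Cre sits in this gene and is carried by KO alone, so its effect and that of ELAVL1 loss cannot be told apart; reads can also be shared with its paralog Lyz1. Lyz2 had 206 coding reads in WT and 65 in KO, and 11171 and 5181 in the 3′ UTR, so both classes were lower in KO as the mRNA was.

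Abcb4, a phospholipid transporter, had 28 coding reads in 2 WT groups and none in KO. Its mRNA stood at 4.37, 5.66, 8.82 and 9.11 RPKM in WT and 2.35, 2.55, 4.24 and 6.16 in KO. KO was lower within each number, while KO 4 lay above WT 1 and WT 2. By edgeR, KO against WT was -0.87 on the log2 scale without the block (SE 0.34, adjusted p = 0.9999) and -0.91 with it (SE 0.11, adjusted p = 0.0204).

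The class as a whole was close to balance. Of the 1390 tested, 691 were higher and 699 lower in KO, with a median log2 fold change of 0.00 (quartiles -0.11 and 0.09). Over all genes tested 6949 were higher and 7070 lower, with a median of 0.00 (quartiles -0.12 and 0.10). Genes with both classes had 1726 higher and 1932 lower, with a median of -0.01. Between libraries of equal number the coding-only median was -0.01, 0.03, 0.01 and -0.02 for numbers 1 to 4, beside -0.02, 0.04, -0.01 and 0.00 over all genes. Of the 5048 members, 20 (0.396%) had every KO library below every WT library and 15 (0.297%) above, against 0.421% and 0.342% of all genes tested.

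**Figure D5:**
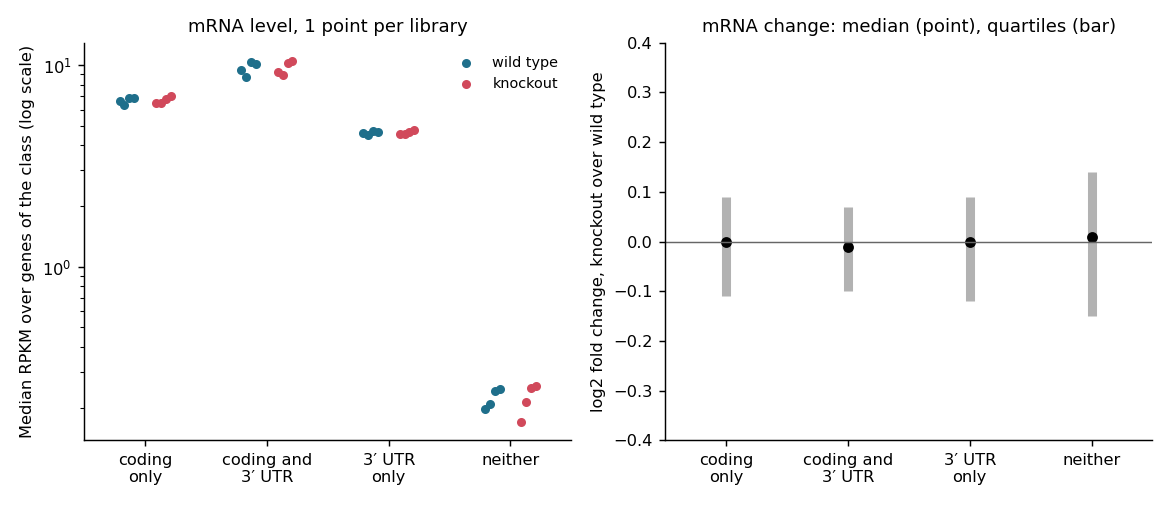
Left, median RPKM over the genes of each class, 1 point per mRNA library (log scale); right, median log2 fold change of KO over WT by edgeR (point) with its quartiles (bar). Coding-only genes lie between 6.32 and 7.00 RPKM in all 8 libraries, and each class has a median change between -0.01 and 0.01.

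edgeR without the block called no gene of these lists. Of the lysosome and cathepsin genes 20 of 30 were higher in KO (median log2 0.06), of the cytoskeleton genes 10 of 25 (-0.05), of the translation factors 9 of 21 (-0.02), of the chaperones 7 of 21 (-0.06) and of the glycolysis genes 1 of 15 (-0.10), each with 0 called by edgeR with or without the block. Of the macrophage identity genes 12 of 24 were higher and 12 lower (0.03), and 1, Lyz2, was called by edgeR with the block. DESeq2 called Lyz2 with and without the block, and with it also Cd36 (log2 -0.54, adjusted p = 2.1e-04) and Msr1 (-0.37, adjusted p = 0.0417), both lower in KO. Of the lysosomal list it called Hexa with the block (0.37, adjusted p = 0.0343), higher in KO. The silencing machinery had 13 of 18 higher (0.06) and antigen presentation 7 of 11 (0.18), with 0 called. Of tested stromal markers 10 of 10 were higher in KO (median log2 0.94) and of neutrophil markers 7 of 8 (0.54), with 0 called; none of the markers of either list was at 0 counts in all libraries. Their part in the results was not tested.

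The mRNA change was also set beside the change in coding reads. Among tested genes with at least 50 coding reads, those past 2-fold higher in KO (298 genes) had a median mRNA log2 fold change of 0.00 (quartiles -0.10 and 0.09), those within 2-fold (1125) 0.00, and those past 2-fold lower (498) -0.02 (quartiles -0.12 and 0.06). Of these, 52.0%, 49.1% and 44.8% were higher in KO mRNA.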

How the data were processed

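AGO2 PAR-CLIP groups (1 library per genotype), mRNA (4 per genotype) and small RNA (2 per genotype) were used. Per the submitters' processing notes CASAVA 1.8.2, Bowtie 0.12.7 and mm9 were involved; the read counter and annotation are not stated in the labels or headers. The authors' deposited tables hold counts per gene with RPKM, counts per miRNA, and per group the read counts, conversion events and class; no strand setting is stated. Members and gene lists were chosen with earlier results of these data known. Genes named are the 10 of most coding reads per library, the 8 leading coding-only genes, 5 extremes of KO over WT per direction, the 6 groups of most reads per library, 3 leading members per list, members called by edgeR, Elavl1 and Eif2c2; sequences shown and the values of Pcnx and Ahnak were singled out after they were seen.

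Counts were tested with edgeR 4.0.16 (TMM, filterByExpr, genotype alone) in R 4.3.3, over 14019 of 21444 genes. The code was run on simulated counts with a fixed spread and no effect of library number. That run does not show how the test performs on these libraries. DESeq2 1.42.0 was run as an alternative, over 21430 genes without the library number as a block and 12297 with it. Same-numbered WT and KO libraries deviated together (r = 0.771, 0.811, 0.744 and 0.801), so the number was also fitted as a block; within numbers 3 and 4, unequal numbers correlated as much (0.832 and 0.763). Overlap used bedtools 2.31.1, on 1 strand, with 1 base. One small RNA file's header names another KO number than its label. Symbols of 5223 of 5272 member genes matched an Ensembl ID. Sequence is not shown for 224 WT and 135 KO groups on 1 chromosome.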

Additional observations from a re-analysis of the deposited data

Results flagged for a closer look

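Of 54 groups of 4 mRNA libraries (23 gene entries, with Ank1 entered more than once) checked for a library far from the other 3, 1 stood out. Hist1h2bk, bound in coding sequence alone, had 0.0273 RPKM in WT 3 and 0 in the other 3 WT libraries. With those 3 at 0, any value above 0 would have been flagged. The 54 include the KO libraries of Hist1h2bk, which were all at 0 and could not be checked. Chance marks about 1 in 20 such groups.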

How the results depend on the processing

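Of the alternatives run, 55 values stayed on their side or within their error, 44 moved and 1 reversed. The value counted as reversed was the coding share of coding and 3′ UTR reads, KO minus WT. It was 2.32 percentage points with at least 0.2 conversion events per read, -0.23 without the Ank1 group and -0.28 without the 2 groups of most reads. The leading 10 and 100 genes of WT held 9.75% and 31.4% of coding reads without the Ank1 and Psap groups, and lysosomal genes 3.67% without the Psap group. KO groups were 89.9% of WT groups at 10 reads or more and 64.5% with at least 2 conversion locations. Overlap was 30.3% of WT and 38% of KO groups when 50% of both groups had to overlap, 35.1% and 41.5% at 10 reads or more, and 54.2% and 57.7% at 20 or more. With any 3′ UTR group counted, 70.3% of WT and 65.3% of KO genes also held one, and 65.3% of WT genes with at least 10 reads required. Seed matches to bases 2 to 8 alone were in 15.5% (WT) and 15.9% (KO) of groups, in 19.8% and 21.6% of groups of 22 to 26 bases, and in 23.2% of WT groups of at least 10 reads. Genes past 2-fold in KO were 23.7% higher and 31.5% lower at 20 reads or more, 4.78% and 14.7% at 200 or more, and 22.8% and 17.9% when scaled to the reads of the class. In that last setting the lean turned, from 15.8% higher and 25.8% lower in the main setting. It was counted among the values that moved, since the higher and lower shares were scored separately.

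mRNA calls over all genes were 2 by DESeq2, 1 with the number set as a term and 14 with numbers 3 and 4 alone, of which 1 was bound in coding sequence alone. With the replicate block edgeR called 5 genes (1 coding only), and 4, 29, 7 and 3 without the libraries numbered 1, 2, 3 and 4 in turn, with 0, 6, 1 and 1 coding only. DESeq2 with the replicate block called 81 (14 coding only). Leaving out single libraries without the block gave 0 to 0 calls, 0 to 0 coding only, and a coding-only median from -0.03 to 0.01, with -0.02 without KO 1 and -0.03 without KO 2. The cause of these shifts was not tested. The settings on conversion events, leading groups and group length, the number set, DESeq2 with the block and the block with libraries left out were chosen after seeing the data. PAR-CLIP has 1 library per genotype, so its differences have no replicate check.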
